A study of Ovis aries with 2 samples.

Results

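Hair shaft precursor cells of sheep lambskin were taken here as cells with a high level of the hair keratin KRT35 that also carried SELENBP1. A cell was included when KRT35 reached 5 CP10K (UMIs of the gene per 10000 UMIs of the cell, where a UMI marks 1 captured RNA molecule), SELENBP1 was above 0, at least 1000 genes were detected, and the inner root sheath keratins KRT71, KRT25, KRT27 and KRT28 together stayed under 20 CP10K. This gave 843 of the 14037 cells of the series. The straight wool library held 333 of them among 6452 cells (5.16%, exact Clopper-Pearson 95% interval 4.63% to 5.73%), and the curly wool library 510 among 7585 cells (6.72%, 6.17% to 7.31%). These and all intervals given later cover counting error only.

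The libraries came from body-side skin of Hu sheep lambs at 3 days of age, with straight wool in one group and waved wool, called curly here, in the other. Skin of 3 lambs was pooled in each group and each pool gave 1 library, so the spread between lambs is not known and the wool types were compared without a test. Cells from isolated follicles and from whole skin had been mixed before loading, and the part of this mixing in the share of a cell type was not tested. The comparison addresses how follicle cells differ with the curvature of the wool.

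The hair shaft is built by matrix cells of the follicle bulb that leave the cell cycle, move upwards and fill with hair keratins. A hair keratin filament pairs a type I with a type II keratin, and KRT35 is among the early type I hair keratins above the matrix. Other hair keratins follow in the forming cortex and cuticle, and the keratin-associated proteins, which embed the filaments, come last. The inner root sheath, a separate layer that surrounds the growing shaft, uses its own keratins such as KRT71.

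The members held 5703722 and 9273169 UMIs in the straight and curly library, with medians of 17934 and 19118 UMIs and of 3147 and 3228 genes per cell. All other cells with at least 1000 genes numbered 5013 and 5410 and had medians of 8534 and 9965 UMIs. The highest number of genes in any cell was 3999 in straight and 3998 in curly. Members with 3500 genes or more made up 31.5% of straight and 32.4% of curly members, against 9.14% and 11.6% of the other cells, so that the upper limit on genes lay close to many members. Across all cells 70 barcodes occurred in both libraries. Cells that should lack hair keratins carried some: of 126 and 95 cells with at least 5 UMIs of the endothelial genes KDR, PECAM1, CDH5 and EMCN, 1 and 2 reached 5 CP10K of KRT35, and 1 in each library passed all criteria.

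KRT35 alone selected 706 and 1480 cells in the straight and curly library. SELENBP1 reduced these to 416 and 739, the number of genes to 337 and 541, and the inner root sheath keratins to the final counts. Near the KRT35 limit, 22 and 19 members lay between 5 and 6 CP10K, and 35 and 32 cells that met the other criteria lay between 4 and 5 CP10K. KRT84 was at 0 CPM (UMIs of the gene per 1000000 UMIs of the group of cells) in the members of that lowest range in both libraries. Between 1000 and 1200 genes lay 12 and 13 members, and 12 and 26 cells lay between 800 and 1000. Inner root sheath keratins reached 15 to 20 CP10K in 5 and 14 members and 20 to 25 CP10K in 2 and 5 cells outside. A single SELENBP1 UMI admitted 48 and 90 members. Cells without SELENBP1 that met the other criteria numbered 79 and 201, and LOC100141295, a gene of the type II keratin block, stood at 2866 and 1545 CPM in them.

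KRT35 and SELENBP1 chose the cells, so their levels are a description. KRT35 ranged over the straight members from 5.11 to 565 CP10K with a median of 54.2, and over the curly members from 5.10 to 350.1 CP10K with a median of 82.7. SELENBP1, a selenium-binding protein that oxidizes methanethiol, ranged from 0.353 to 183 CP10K (median 24.6) in straight and from 0.363 to 153 CP10K (median 14.7) in curly members. The ranges of the libraries overlapped over most of their width for both genes.

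The remaining markers given for these cells, KRT84, KRT36 and GNG4, were not used by the rule. KRT84, a type II hair keratin, was detected in 32.1% and 30.4% of straight and curly members (intervals 27.1% to 37.4% and 26.4% to 34.6%), against 4.80% and 3.19% of the endothelial cells, whose median depth was 8741 and 6134 UMIs. GNG4, a G protein gamma subunit, was detected in 46.0% and 54.7% of members against 2.4% and 1.06% of endothelial cells. KRT36, a type I hair keratin, was detected in 33.0% and 23.3% against 2.4% and 2.13%. With every cell thinned to 3000 UMIs, which left out 19 shallower members in each library, the shares of members were 18.8% and 16.9% for KRT84, 22.0% and 26.3% for GNG4 and 16.9% and 7.13% for KRT36. Each of the 3 markers was thus found more often than in endothelial cells, and in a minority of the thinned members.

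**Figure D1:**
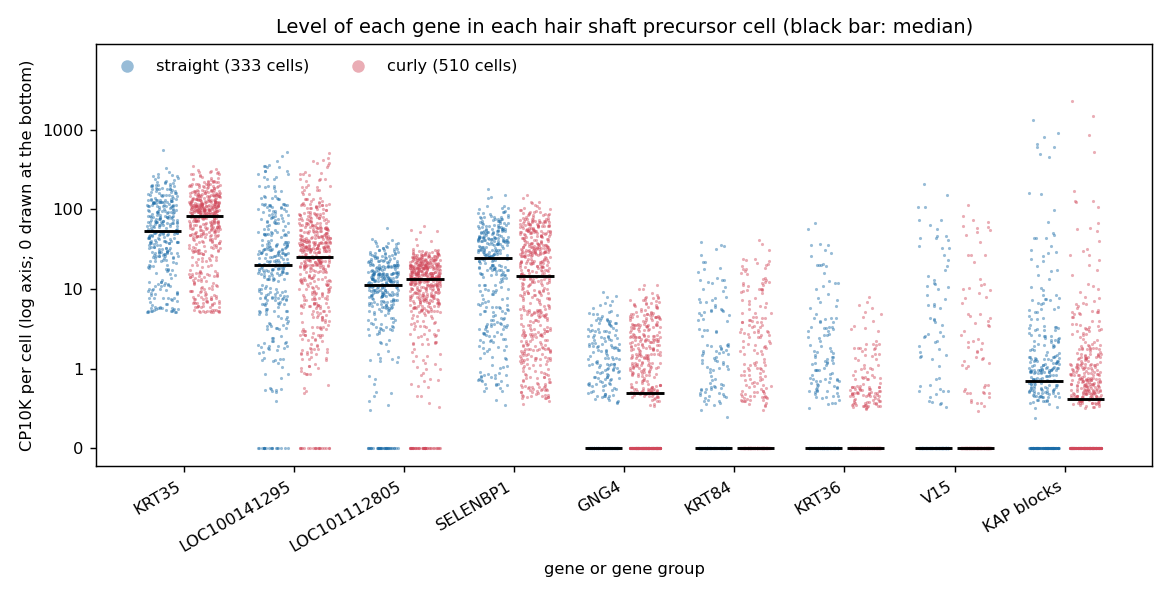
Level of each gene in each hair shaft precursor cell, in CP10K on a log axis with 0 drawn at the bottom, for 333 straight (blue) and 510 curly (red) cells; KAP blocks are the summed keratin-associated protein genes and black bars are medians. KRT35 has medians of 54.2 and 82.7 CP10K, whereas the medians of KRT84, KRT36 and V15 are 0 and single cells reach high values.

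Among 7205 genes with at least 100 UMIs over the members of both libraries, 74 (1.03%) were at least 4-fold higher in the members than in all other cells of each library. KRT35 stood at 7982 and 9519 CPM in straight and curly members against 89.4 and 199.6 CPM in the other cells. SELENBP1 stood at 3185 and 2712 CPM against 71.6 and 55.6 CPM. LOC100141295, which lies next to KRT84 among the type II keratin genes in RefSeq order and has no other name there, stood at 5671 and 5017 CPM against 231 and 140.5 CPM. It was detected in 94.6% and 96.1% of members, but also in 52.8% and 41.5% of endothelial cells. LOC101112805, of the same block, stood at 1283 and 1361 CPM against 49.6 and 105 CPM. KRT84 was 61.6-fold and 29.3-fold higher in members, GNG4 23.6-fold and 24.1-fold, and KRT36 45.7-fold and 23.3-fold.

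Genes that are no keratins were also among the first 20. HEPHL1, a copper-dependent ferroxidase, stood at 15.8 and 10.6 CPM in straight and curly members against 0.216 and 0.256 CPM in the other cells. HS3ST2, a heparan sulfate sulfotransferase, stood at 36.1 and 40.8 CPM against 1.73 and 1.42 CPM. EFHD1, a calcium-binding protein of mitochondria, stood at 388 and 344 CPM against 31.1 and 26.6 CPM. DSG4, the desmoglein of the hair shaft, stood at 13.0 and 8.63 CPM against 0.843 and 0.557 CPM. TTLL7, which adds glutamate chains to tubulin, stood at 73.6 and 56.3 CPM against 7.45 and 4.85 CPM. The rest of the 20 were LOC101121185, LOC101122865, LOC101106282, FAM49A, LOC114112552, UPK3B, CCDC155 and LOC105606881.

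Other groups of cells, chosen by the levels of a few genes, were set beside the members. Matrix-like cells (99 and 176 in the straight and curly library) had MSX1 and LEF1, transcription factors of the matrix, above 0, KRT35 under 5 CP10K, no SELENBP1 and VIM under 5 CP10K. They also had at least 1000 genes and inner root sheath keratins under 20 CP10K. Inner root sheath keratin-high cells (44 and 162) had at least 100 CP10K of the inner root sheath keratins, KRT35 under 5 CP10K and at least 1000 genes. Their depth was near that of the members, with medians of 16802 and 18240 UMIs in matrix-like and 19882 and 21634 UMIs in inner root sheath keratin-high cells. Over all compared genes, 366 (5.08%) were at least 2-fold higher and 253 (3.51%) at least 2-fold lower in members than in matrix-like cells of both libraries. The lower genes numbered 149 when levels were averaged over cells. The counts within gene lists that follow are to be read beside the shares of 5.08% and 3.51%.

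Of 22 hair lineage transcription factors with 100 UMIs, 3 were at least 2-fold higher and 2 at least 2-fold lower in members than in matrix-like cells. HOXC13, which binds hair keratin promoters, stood at 88.5 and 141 CPM in members, 42.9 and 25.1 CPM in matrix-like and 3.80 and 4.08 CPM in inner root sheath keratin-high cells. FOXN1, the factor lacking in nude mice, stood at 35.1 and 28.2 CPM in members against 4.29 and 5.89 CPM in matrix-like cells. GRHL1, a grainyhead factor of epithelia, stood at 49.3 and 26.4 CPM against 20.9 and 13.0 CPM. The lower genes were DLX4, a homeobox factor, at 33.1 and 38.7 CPM against 99.99 and 79.9 CPM, and GATA3, a factor of the inner root sheath, at 14.4 and 12.0 CPM against 89.0 and 112 CPM. LEF1, which carries WNT signals to the genome, stood at 111 and 119 CPM in members and 24.1 and 17.5 CPM in inner root sheath keratin-high cells. Its level in matrix-like cells was set by their selection and is not compared.

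Of 22 WNT pathway genes, the ligand WNT3 and the inhibitor SFRP1 were at least 2-fold higher in members than in matrix-like cells, and the inhibitor WIF1 was lower (31.0 and 4.64 CPM against 66.9 and 13.0 CPM). Over all compared genes 5.08% were higher and 3.51% lower, so these few genes are not read as a change of the pathway. WNT3 stood at 14.2 and 11.7 CPM against 4.91 and 0.929 CPM, and a UMI of it was found in 15.3% and 16.1% of members against 0.800% and 1.06% of endothelial cells. Of the matrix-like cells, 6.06% and 1.7% carried a WNT3 UMI, which is 6 and 3 cells. All matrix-like cells together held 1630082 and 3227589 UMIs in the straight and curly library. Levels of a few CPM in them thus rest on few UMIs, here and below. WNT10A, another ligand, stood at 56.5 and 71.3 CPM against 46.6 and 34.1 CPM. Of 11 Notch pathway genes, 3 were higher. They were the receptors NOTCH1 (93.5 and 92.4 CPM against 28.8 and 41.5 CPM) and NOTCH3 (28.6 and 34.6 CPM against 1.23 and 10.8 CPM) and the target HEYL (41.9 and 58.9 CPM against 5.52 and 9.29 CPM). The ligand JAG1 stood at 136 and 171 CPM against 77.9 and 62.6 CPM, and the ligand JAG2 was lower, at 8.42 and 11.4 CPM against 41.1 and 36.6 CPM.

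Of 14 BMP pathway genes, 0 were 2-fold higher in both libraries, and the ligand BMP2 was lower (26.6 and 13.9 CPM against 62.0 and 40.9 CPM). The BMP target ID2 stood at 694 and 728 CPM in members beside 378 and 413 CPM in matrix-like and 115 and 135 CPM in inner root sheath keratin-high cells. PTCH1, a hedgehog receptor, stood at 12.4 and 16.5 CPM in members against 20.2 and 28.2 CPM in matrix-like cells. Of 8 growth factor receptors, FGFR3 (27.2 and 44.3 CPM against 10.4 and 19.5 CPM) and ERBB3 (18.2 and 17.2 CPM against 6.13 and 8.37 CPM) were at least 2-fold higher.

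**Figure D2:**
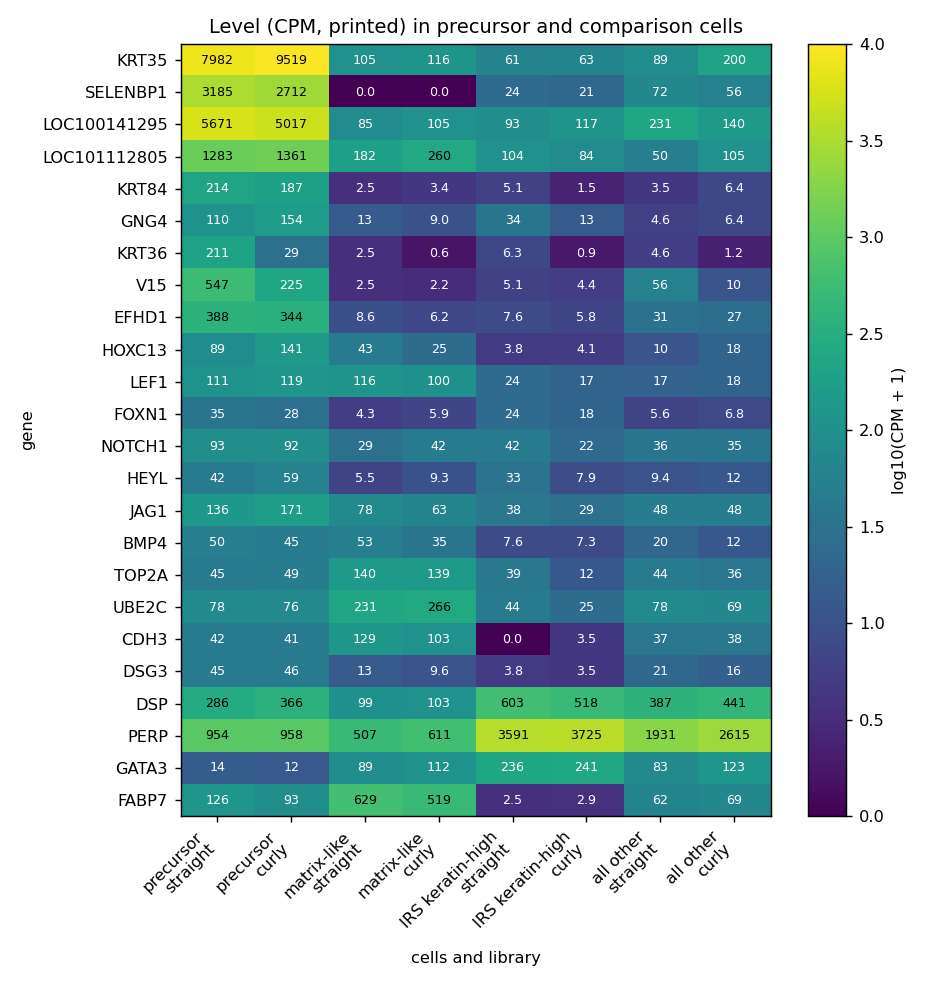
Level of each gene (rows) in hair shaft precursor cells and in 3 sets of comparison cells of each library (columns), in CPM as printed, with colour on a log10(CPM + 1) scale. KRT35, which was part of the selection of cells, LOC100141295 and EFHD1 are higher in the precursor cells than in the other columns. TOP2A and FABP7 are higher in matrix-like cells than in the precursor cells.

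Genes of DNA synthesis and mitosis were lower in members. Of 19 such genes, 12 were at least 2-fold lower than in matrix-like cells in both libraries and 0 were higher, and summed they stood at 673 and 726 CPM against 1746 and 1975 CPM. TOP2A, the topoisomerase of dividing cells, stood at 44.9 and 48.9 CPM against 139.9 and 139 CPM. CCND2, a D cyclin, stood at 68.4 and 44.9 CPM against 222 and 133 CPM. CDKN2B, an inhibitor of cyclin-dependent kinases, stood at 9.12 and 22 CPM in members, and matrix-like cells held 1 and 2 UMIs of it in all.

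Of 19 desmosome and junction genes, 10 were at least 2-fold higher in members than in matrix-like cells and 1 was lower. Desmoplakin (DSP) stood at 286 and 366 CPM against 99.4 and 103 CPM, plakoglobin (JUP) at 192 and 231 CPM against 78.5 and 107 CPM, and desmoglein 3 (DSG3) at 44.5 and 45.5 CPM against 12.9 and 9.61 CPM. The lower gene was CDH3, P-cadherin, at 42.4 and 41.2 CPM against 129 and 103 CPM. In inner root sheath keratin-high cells DSP stood at 603 and 518 CPM and DSG3 at 3.80 and 3.50 CPM, so that the desmosomal genes did not share 1 pattern.

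Of 23 genes of thiol and selenium metabolism, SELENBP1, whose absence defined the matrix-like cells, was the only one past 2-fold. Thioredoxin (TXN) stood at 1036 and 1040 CPM against 624 and 592 CPM. Of 9 retinoid and fatty acid binding genes, FABP4, a fatty acid carrier, was higher (225 and 188 CPM against 65.6 and 16.7 CPM). Its relative FABP7 was lower (126 and 93.2 CPM against 629 and 519 CPM), as was the retinal reductase DHRS3 (7.54 and 9.17 CPM against 32.5 and 25.1 CPM). Of 11 immediate early genes, which respond to cell handling among other things, 0 passed 2-fold either way.

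The members of each library were then ordered by the summed CP10K of 9 hair keratins other than KRT35 and divided into 4 parts of 83 or 84 straight and 127 or 128 curly cells. These keratins were KRT36, V15, KRT84, KRT82, KRT32, KRT39, KRT40, KRT2.11 and LOC100526780, where RefSeq gives KRT31 as a synonym of V15 and KRT83 as a synonym of LOC100526780. The first part had none of them, nor had 14 straight and 67 curly cells of the second part. The median of the sum in the last part was 19.4 CP10K in straight and 9.77 CP10K in curly members. Median depth was 15916 UMIs in the first and 20666 UMIs in the last part of the straight members, and 16348 and 20877 UMIs in the curly. Of 7200 genes outside the score, 217 (3.01%) were at least 2-fold higher and 486 (6.75%) at least 2-fold lower in the last than in the first part of both libraries. Thinned to 3000 UMIs per cell, these counts were 51 and 49.

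KRT35 stood at 4545, 5582, 9194 and 11902 CPM from the first to the last part of the straight members, and at 5915, 7293, 10232 and 13805 CPM in the curly. LOC100141295 stood in the first and last part at 1482 and 13123 CPM in straight and 1992 and 10112 CPM in curly members. LOC101112805 differed little along the same order, at 1158 and 1397 CPM in straight and 1206 and 1302 CPM in curly members. SELENBP1 stood at 2532 and 4298 CPM in straight and 1138 and 4614 CPM in curly members. After thinning its log2 difference between the last and the first part was 0.96 in straight and 1.09 in curly members. GNG4 stood at 44.7 and 178 CPM in straight and 56.8 and 273 CPM in curly members. For EFHD1 the levels were 124 and 868 CPM in straight and 117 and 716 CPM in curly members.

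All 19 compared genes of DNA synthesis and mitosis were at least 2-fold lower in the last part of both libraries. Their sum stood at 1248, 987, 410.4 and 153 CPM from the first to the last part of the straight members, and at 1294, 1159, 453 and 127 CPM in the curly. After thinning, the median log2 difference of these genes between the last and the first part was -2.24 in straight and -2.52 in curly members. TOP2A stood in the first and last part at 87.0 and 3.76 CPM in straight and 100.4 and 3.63 CPM in curly members. The 5 genes with the largest increase, LOC114116855, LOC101111893, BIIIB4, LOC101103772 and LOC100526781, belonged to the keratin and keratin-associated protein blocks. LOC101103772 stood at 27.6 and 2936 CPM in straight and 17.3 and 2159 CPM in curly members. Of its UMIs, 2 straight and 3 curly members held 50%. For BIIIB4 and LOC100526781 it took 2 straight members and 1 curly member each, so these last-part levels rested on few cells. The 5 genes with the largest decrease were CENPW, KIF15, NCAPG, PKMYT1 and RMI2, which act at the centromere, in mitosis or in DNA repair. FABP7 stood at 216 and 28.8 CPM in straight and 186 and 10.9 CPM in curly members. CDKN1A, an inhibitor of cyclin-dependent kinases, was higher in the last part, at 233 and 625 CPM in straight and 214 and 442 CPM in curly members.

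Of 8 genes of the hair shaft that are no keratins, 6 were at least 2-fold higher in the last part of both libraries. MT4, a metallothionein of squamous epithelia, stood in the first and last part at 19.5 and 1178 CPM in straight and 65.2 and 630 CPM in curly members. TGM3, a transglutaminase that cross-links hair proteins, stood at 4.88 and 93.9 CPM in straight and 4.73 and 75.4 CPM in curly members. S100A3, a calcium-binding protein of the hair cuticle, stood at 2.44 and 322 CPM in straight and 4.73 and 263 CPM in curly members, but 1 member in each library held 50% of its UMIs. Of the transcription factors, FOXN1 was 2-fold higher and GATA3 2-fold lower in both libraries, and no other passed in both. FOXN1 stood at 9.75, 20.3, 26.7 and 75.8 CPM from the first to the last part of straight and 16.3, 17.02, 28.5 and 48.4 CPM of curly members. WNT3 stood at 5.69 and 25.04 CPM in straight and 5.78 and 21.8 CPM in curly members. HOXC13 stood at 101 and 87.0 CPM in straight and 111 and 179 CPM in curly members, within 2-fold in both.

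**Figure D3:**
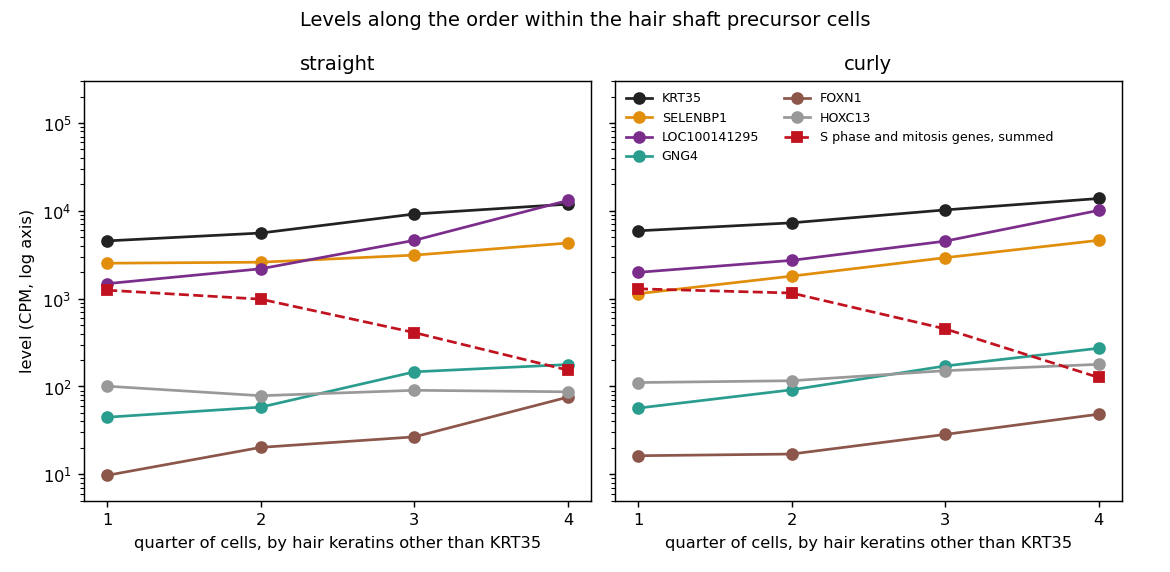
Level in CPM (log axis) in 4 parts of the members of each library, ordered by the summed level of 9 hair keratins other than KRT35; the dashed line sums genes of DNA synthesis and mitosis. KRT35, SELENBP1, LOC100141295, GNG4 and FOXN1 are higher in part 4 than in part 1 in both panels, while the summed cell cycle genes are lower.

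KRT84, KRT36 and V15 overlapped in part, but some pairs no more often than their shares over all members would give. With a minimum of 3 UMIs, KRT84 was found in 59 straight and 96 curly members (17.7% and 18.8%). KRT36 was found in 62 and 24 (18.6% and 4.71%), and V15 in 42 in each library (12.6% and 8.24%). KRT84 and KRT36 shared 24 straight cells (40.7% of the KRT84 and 38.7% of the KRT36 cells) and 4 curly cells (4.17% and 16.7%). KRT84 and V15 shared 7 straight cells, which is 11.9% of the KRT84 and 16.7% of the V15 cells, and 4 curly cells (4.17% and 9.52%). Among KRT84 cells V15 was thus no more frequent than among all members in either library, nor was KRT36 in curly. KRT36 and V15 shared 23 straight cells (37.1% and 54.8%) and 12 curly cells (50% and 28.6%). V15 was also found in 16 of 17 straight and 14 of 16 curly cells with GPRC5D, an orphan receptor of hair-forming cells. TOP2A at the same minimum was found in 29 straight and 55 curly members, none of which had 3 UMIs of KRT36 or V15. KRT84 was found in 0 of these in straight and 3 in curly. Of these TOP2A cells, 27 in straight (93.1%) and 31 in curly (56.4%) had at least 3 UMIs of SELENBP1. Over all members these shares were 81.7% and 77.1%, so the libraries went opposite ways.

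Between the libraries, KRT36, V15 and further hair keratins were lower in curly members. Hair keratins were taken as 15 genes of the type I and type II blocks in RefSeq order, and keratin-associated proteins as 40 genes of a further pair of blocks; these blocks were chosen after values had been seen. Reads of near-identical copies in these families may have been divided between genes in ways the table does not show, so that the level of a single copy is uncertain. Over all 7205 compared genes, 125 (1.73%) were at least 2-fold higher and 177 (2.46%) at least 2-fold lower in curly members, and the log2 ratio had a median of -0.00. Thinned to 3000 UMIs per cell, 41 were higher and 74 lower. Of the 11 hair keratins with 100 UMIs, 7 were at least 2-fold lower and 0 at least 2-fold higher in curly, with a median log2 ratio of -1.63 against -0.81 in the other cells. Within 2-fold were KRT35 (log2 ratio 0.25, interval 0.24 to 0.27), LOC101112805 (0.09, 0.04 to 0.13), LOC100141295 (-0.18, -0.20 to -0.16) and KRT84 (-0.20, -0.30 to -0.09). KRT35 selected the members, which limits how far its level could differ, and its log2 ratio in the other cells was 1.16. The other cells include the 79 straight and 201 curly cells that failed only the SELENBP1 criterion, and cells just under the KRT35 limit. Hair keratin ratios in the other cells are thus not those of a background without hair keratin cells. KRT84 turned to 0.11 without members carrying 2 or more UMIs of dermal, endothelial, leukocyte or melanocyte markers, and likewise to 0.11 without members of 3500 or more genes.

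KRT36 had the largest difference among the hair keratins. It stood at 211 CPM in straight (199 to 223, exact Poisson) and 28.6 CPM in curly members (25.2 to 32.2), a 7.38-fold lower level (log2 ratio -2.88, -3.08 to -2.69). Single cells reached 66.9 CP10K in straight and 7.97 CP10K in curly, and the median cell had none in both, so that the ranges overlapped. In the other cells the log2 ratio of KRT36 was -1.92, with 4.61 and 1.22 CPM. V15 stood at 547 and 225 CPM (log2 ratio -1.28, -1.36 to -1.20) and LOC100526780 at 751 and 242 CPM (-1.63, -1.71 to -1.56). The other genes at least 2-fold lower were LOC100526782, LOC100526784, LOC100526781 and KRT2.11, with log2 ratios of -2.31, -2.20, -2.11 and -1.97. For each of them, 1 to 3 members of a library held 50% of the UMIs.

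Of the 17 keratin-associated protein genes with 100 UMIs, 17 were lower in curly members and 8 at least 2-fold, with a median log2 ratio of -0.99 against -0.80 in the other cells. KRTAP6-1, a glycine- and tyrosine-rich member, stood at 76.4 and 6.47 CPM in straight and curly members (log2 ratio -3.56, -3.98 to -3.17).

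**Figure D4:**
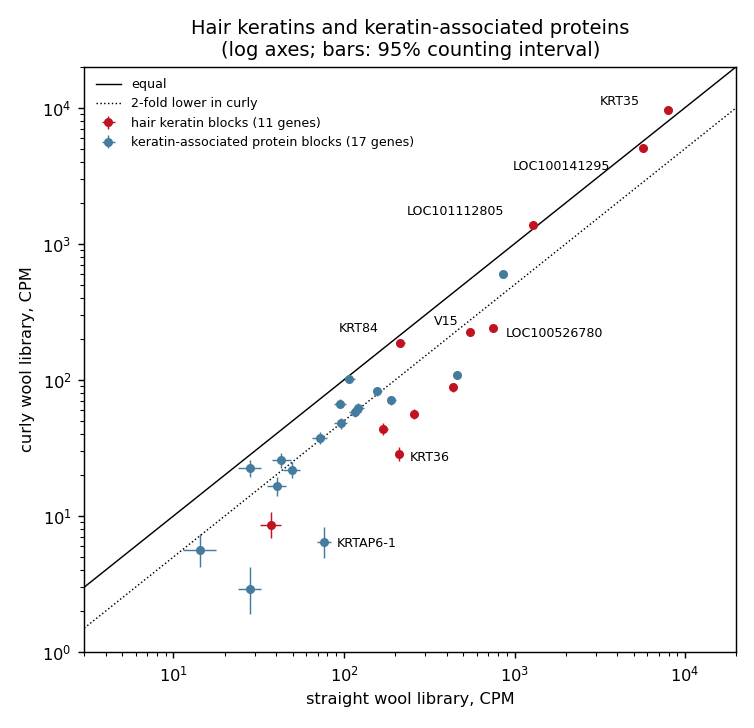
Level of each hair keratin (red, 11 genes) and keratin-associated protein block gene (blue, 17 genes) in hair shaft precursor cells of the straight (x) and curly (y) library, in CPM on log axes with 95% Poisson intervals. KRT35, LOC101112805, LOC100141295 and KRT84 lie near the line of equality, where KRT35 was part of the rule, and KRT36 (log2 ratio -2.88) and KRTAP6-1 (-3.56) lie far under it.

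A few cells carried most of these UMIs. Of the keratin-associated protein UMIs, 3 and 2 members of the straight and curly library held 50%. For V15 it took 5 and 6 members, for KRT36 8 and 17 and for KRT35 57 and 107. In an added comparison, the 10 members of each library highest in the 9 hair keratins and the keratin-associated proteins were left out. KRT36 then stood at 213 and 24.9 CPM (log2 ratio -3.10) and V15 at 284 and 95.2 CPM (-1.57). LOC100526780 stood at 87.5 and 49.0 CPM (-0.84) in place of 751 and 242 CPM. For LOC100526782, LOC100526784, LOC100526781 and KRT2.11 the log2 ratios were then -1.32, -1.87, -1.87 and -1.64. The summed keratin-associated proteins stood at 399.7 and 230.1 CPM (-0.80) in place of 2597 and 1356 CPM, and LOC101103772, the one with the most UMIs, turned from -0.51 to 0.19. Counted by cells thinned to 3000 UMIs, 12.1% of straight (8.71% to 16.2%) and 5.70% of curly (3.82% to 8.14%) members had 10 or more UMIs of these genes, and 42.7% of straight (37.1% to 48.4%) and 57.6% of curly (53.1% to 62.0%) members had none.

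**Figure D5:**
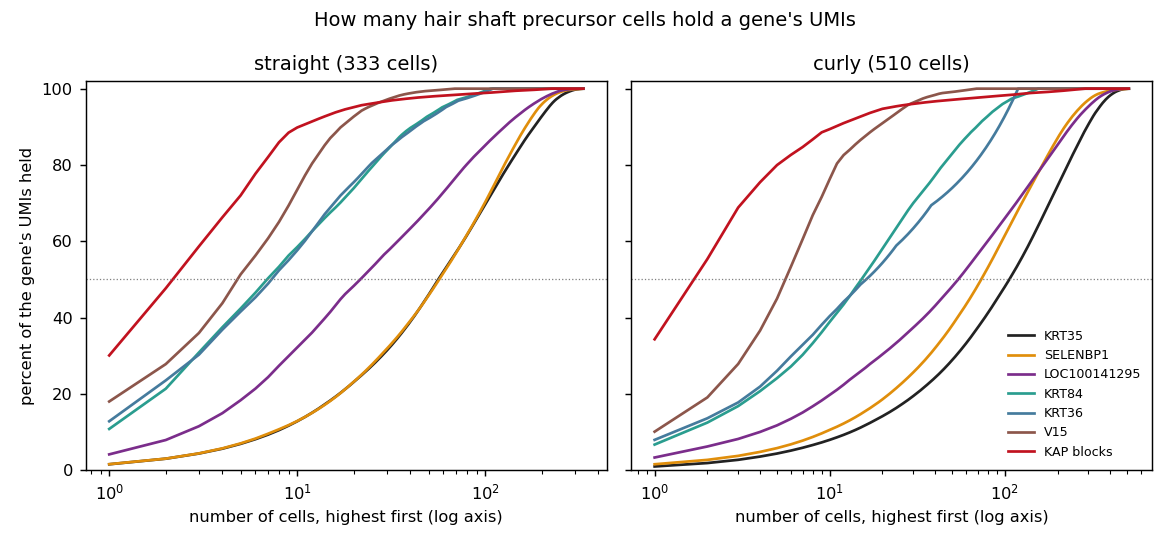
Percent of the UMIs of a gene or gene group (y) held by a growing number of hair shaft precursor cells taken from the highest down (x, log axis), for 333 straight (left) and 510 curly (right) cells; KAP blocks are the summed keratin-associated protein genes. The dotted line marks 50%, which KAP blocks reach with 3 and 2 cells and KRT35 with 57 and 107.

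Cells with at least 5 CP10K of KRT35 but under 1000 genes were left out by the rule, and they were not shown to be hair cells. They numbered 226 and 252 in the straight and curly library, with medians of 923 and 1266 UMIs, at which 1 KRT35 UMI could suffice, and 41.6% and 54.3% of endothelial cells carried a KRT35 UMI at their own depth. They also held the mast cell tryptase TPSB2 at 1981 and 249 CPM and the leukocyte proteoglycan SRGN at 1059 and 388 CPM, against 244 and 14.1 and 161 and 18.1 CPM in the other cells. In them 9 of the 11 hair keratins were higher in curly, 7 with an interval above 0, but several of these were found in few cells. LOC100526784 stood at 87.6 and 549 CPM (log2 ratio 2.65, 1.99 to 3.38; 21 and 181 UMIs), found in 9 and 11 cells. V15 stood at 83.4 and 173 CPM (log2 ratio 1.05, 0.29 to 1.87; 20 and 57 UMIs), found in 11 and 16 cells. KRT36 stood at 41.7 and 30.3 CPM (log2 ratio -0.46, -1.88 to 0.96; 10 and 10 UMIs), found in 8 and 9 cells, and a difference was not detectable at this depth. Of the keratin-associated protein genes, 9 of 17 were higher in curly in these cells.

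Outside the keratin families, HOXC13 stood at 88.5 and 141 CPM in straight and curly members (log2 ratio 0.67, 0.52 to 0.82). It was detected in 60.4% and 73.9% of members (54.9% to 65.7% and 69.9% to 77.7%), and in 23.9% and 33.6% after thinning. GPRC5D stood at 231 and 59.7 CPM (log2 ratio -1.95), with 3 members of each library holding 50% of its UMIs. CLDN4, a claudin of tight junctions, stood at 691 and 246 CPM (-1.49) and was detected in 275 and 373 members, while the other cells had 397 and 550 CPM. TUBA1C, an alpha tubulin, stood at 411 and 93.7 CPM (-2.13) in members and 269 and 99.8 CPM in matrix-like cells. HBEGF, a ligand of the EGF receptor, stood at 70.8 and 19.4 CPM (-1.87). TUBA1C and HBEGF were named because they differed in members while the other cells stayed within 2-fold, a choice made after values had been seen. In the other cells TUBA1C stood at 152 and 81.6 CPM (-0.90), close to that limit, and HBEGF at 87.9 and 66.0 CPM (-0.41). In inner root sheath keratin-high cells TUBA1C stood at 217 and 88.3 CPM. Its lower level in curly was thus not particular to the members.

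Most of the pathway lists differed little between the libraries. The genes of DNA synthesis and mitosis had a median log2 ratio of 0.11, with 0 of 19 past 2-fold either way. The median was -0.15 for WNT, -0.05 for BMP and 0.33 for Notch pathway genes, where WIF1 alone passed 2-fold (31.0 and 4.64 CPM). WIF1 had a log2 ratio of -2.74 in members and -2.83 in the other cells. Of 7 cornified envelope genes, which belong to the epidermis, 5 were at least 2-fold higher in curly members, with a median log2 ratio of 1.06 against 1.65 in the other cells. CST6, an epidermal protease inhibitor, stood at 569.5 and 1516 CPM in members and 4910 and 15447 CPM in the other cells. IFI6, an interferon-induced gene, stood at 8.77 and 423 CPM in members and 80.4 and 4588 CPM in the other cells. The part of free RNA in these differences was not tested.

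The genes with the largest differences between the libraries mostly differed in the other cells too. The highest in curly were LOC114117975, LOC105607568, LOC114117974, LOC101112291 and LOC114117976, with no UMI in straight members. LOC114117975 had 453 UMIs in curly members, at least 92.9-fold higher against a floor of 3 counts over the straight members, and stood at 0 and 377 CPM in the other cells. LOC114117888, LOC105603509, LOC101113168, LOC114117804 and LOC114117806 followed, and LOC101113168 had 11 and 2025 UMIs in straight and curly members (log2 ratio 6.82, and 4.93 in the other cells). The lowest in curly was LOC114108680, with 242 and 2 UMIs (log2 ratio -7.62, -10.67 to -5.75, and -7.56 in the other cells). LOC114113332 had 188 and 2 UMIs (-7.26, -10.31 to -5.38, and -1.76), and 2 straight members held 50% of its UMIs. LOC114115666 had 735 and 9 UMIs (-7.05, and -6.52), and TPSB2 171 and 5 UMIs (-5.80, and -4.12). Of the straight UMIs of TPSB2, the mast cell tryptase, 139 lay in the first part of the order. It stood at 113 CPM there and at 0.654 CPM in the second part. Leukocyte markers had a UMI in 33 straight members and reached 128.6 CP10K in a single one. The part of doublets in this difference was not tested. The rest of the 10 lowest were KRTAP6-1, LOC101120093, LOC101116371, KRT36, WIF1 and SRGN, with log2 ratios from -3.56 to -2.72.

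Markers of most other cell types were lower in the members than in the other cells. Those cells include these cell types, so the order was largely set in advance and does not show how pure the members are. Beside matrix-like cells, whose selection limited VIM, dermal genes with 100 UMIs summed to 144 and 85.4 CPM in members against 36.2 and 19.5 CPM. SRGN stood at 14.9 and 2.27 CPM against 3.07 and 1.24 CPM. Suprabasal and contractile sums were also higher in members, and basal and companion layer sums lower. The 5 inner root sheath genes of the table summed to 187 and 345 CPM against 1037 and 3322 CPM in the other cells, though the rule limited most of them. Basal keratinocyte genes summed to 1303 and 1646 CPM against 16314 and 15695 CPM, suprabasal genes to 633 and 879.7 CPM against 9065 and 13860 CPM, companion layer genes to 705 and 664 CPM against 7759 and 7020 CPM and contractile genes to 19.99 and 44.97 CPM against 390.4 and 930.1 CPM. Dermal genes summed to 157 and 90.3 CPM against 1775 and 841 CPM, leukocyte genes to 19.5 and 4.64 CPM against 217 and 27.8 CPM and endothelial genes to 5.08 and 1.83 CPM against 55.6 and 24.9 CPM, with 2 of the 4 endothelial genes at 0 in curly members. Melanocyte genes were near 0 everywhere (1.75 and 1.29 CPM against 1.35 and 1.04 CPM), and cycling cell markers were not lower (96.1 and 102.1 CPM against 91.7 and 73.8 CPM). Single members reached 1735 CP10K of suprabasal genes in straight and 1408 CP10K of basal genes in curly. Without the 84 and 85 members that had at least 2 UMIs of dermal, endothelial, leukocyte or melanocyte markers, the log2 ratios between the libraries had a median of -1.29 for the hair keratins and -2.52 for the keratin-associated proteins. Without members of 3500 or more genes these medians were -1.11 and -3.13. Few members held most keratin-associated protein UMIs, so the medians of these genes are not read as a larger difference.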

How the data were processed

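Single-cell 3' RNA libraries of the straight and the curly group, 1 library each, were analysed. The deposited table holds, per the authors' processing, the natural log of 1 plus CP10K for 18161 genes and 14037 cells. The submitters' processing notes name Cell Ranger 3.0.2 (the study's methods name another version), and the study's methods describe Seurat filtering and normalization; strand and multi-mapping settings are not given in the sources used here. Each cell's UMIs were recovered from the steps of its values (100% of 28552149 values whole within 0.01), giving 57956122 and 77634565 UMIs for the straight and curly library. A count test would have needed replicate libraries, so none was run.

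UMIs were summed over the members and divided by their total (CPM), with exact Poisson intervals at 95% and an exact binomial split for ratios. Genes needed 100 UMIs over the members of both libraries. A count of 0 was read against a floor of 3 counts (0.526 and 0.324 CPM). Doublets were not called; an alternative left out members with 2 or more UMIs of foreign markers. The log2 ratio and its interval were tested on simulated Poisson sums with known changes. That simulation did not gather UMIs in few cells, so it cannot show how well the intervals hold for genes where this occurs. The members and gene lists were chosen with earlier results of these data known. Genes were named when they were in the rule, the markers or the lists, among the 20 highest over other cells, the 10 highest and 10 lowest of curly over straight, or the 5 that changed most along the order in each direction; blocks and exceptions are stated where they occur. Gene names and neighbours came from RefSeq (ARS-UI_Ramb_v3.0), an assembly other than the one the authors used, so no coordinates are given. Scripts ran in Python 3.11.15 with pandas 2.3.3, numpy 2.4.6, matplotlib 3.10.9 and scipy 1.17.1. One gene of the lists is not reported here.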

Additional observations from a re-analysis of the deposited data

How the results depend on the processing

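No paired analysis was possible because each group had 1 library, and for the same reason no replicate could be left out. The share of members was 4.45% in straight and 5.97% in curly with KRT35 at 10 CP10K, 6.39% and 9.37% without the SELENBP1 criterion, and 4.48% and 6.13% with a higher minimum of genes. The median log2 ratio of the hair keratins was -1.32 with KRT35 at 10 CP10K, -1.29 without members carrying foreign markers, -1.11 without members of 3500 or more genes, -1.32 without the 10 highest members, and -1.16 for the mean of cells. For the keratin-associated proteins it was -2.52, -3.13, -1.84 and -1.34 under the last 4 of these. The 10 members highest in these genes held 89.8% of their UMIs in straight and 89.4% in curly. Without the 10 highest members the log2 ratio of the summed genes went the other way, from -0.94 to -0.80. The larger medians are thus not read as a larger difference. Genes at least 2-fold higher in curly numbered 82 without members of 3500 or more genes. Thinned to 3000 UMIs there were 41 higher and 74 lower, and with a minimum of 20 UMIs 405 and 527. Genes lower than in matrix-like cells numbered 149 for the mean of cells and 152 without members of 3500 or more genes. Along the order, 51 were higher and 49 lower after thinning, and 129 and 200 with 2 parts. The alternatives on high gene number and on the 10 highest members were chosen after seeing the data. KRT36 stayed between -3.10 and -2.70 over 12 alternatives. KRT84 turned to 0.11 without members carrying foreign markers and to 0.11 without members of 3500 or more genes. LEF1 turned to -0.03 and -0.01 under the same alternatives, to -0.04 for the mean of cells and to -0.09 after thinning. MSX1 turned to -0.04 without foreign markers and -0.12 after thinning, and WNT3 to 0.04 for the mean of cells and 0.28 after thinning. The causes were not tested.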
